A study of Homo sapiens with 4 samples.

Results

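The 10 genes described here encode the polo-like kinases PLK1, PLK2, PLK3 and PLK4 and the enzymes that set the moment of mitotic entry, which are the inhibitory kinases WEE1 and PKMYT1, the phosphatases CDC25A, CDC25B and CDC25C and the checkpoint kinase CHEK1. They were taken from the table by gene symbol, and all 10 were found among its 13957 genes. The group was chosen by gene name at a time when the fold changes of these genes in the table were known, and those fold changes are not used here. The table was made from MDA-MB-231 Fluc cells, a triple-negative breast cancer line that carries an inserted luciferase gene. In the cordycepin group 2 samples received the drug at 50 μM for 2 h, and in the vehicle group 2 samples received DMSO for the same time. Cordycepin is 3'-deoxyadenosine, an adenosine analogue whose triphosphate can end the growth of a poly(A) tail.

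The only measurement used was the authors' log2 CPM of each gene, where CPM is a gene's count scaled to a common library size. The value carries no sample name and was read as a mean level over the 4 libraries. This mean joins treated and control cells, so it is the level of neither group, and no difference between cordycepin and DMSO was computed. It has no SD, and the depth behind it is unknown, so no 2 genes can be said to differ beyond an error of measurement. The basal, mesenchymal-like identity of the line was looked up in its markers. Of 6 markers of such cells 5 were in the table, at percentiles 84.3 to 99.3 of all genes by level per length, with VIM at a log2 CPM of 10.45 and SPARC not among the genes. Of 6 luminal or epithelial markers 4 were present at percentiles 23.2 to 71.6, with ERBB2 the highest, and the hormone receptor genes ESR1 and PGR were not among the genes.

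A cell enters mitosis when the kinase CDK1, bound to cyclin B, becomes active. WEE1 in the nucleus and PKMYT1 on internal membranes hold CDK1 inactive by phosphorylating it, and the CDC25 phosphatases remove those phosphates. PLK1 favours entry by activating CDC25C and by marking WEE1 for destruction, whereas CHEK1 delays entry after replication stress by acting on CDC25 proteins and WEE1. PLK4 has another task, the duplication of centrioles, and PLK2 and PLK3 are known as genes that respond rapidly to serum and to stress.

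The ends of the mRNAs are shown first, because the poly(A) tail, whose growth cordycepin triphosphate can end, is added downstream of the polyadenylation signal. A link between these letters and the drug was not tested. In the canonical transcripts of GENCODE release 44 (GRCh38), the last 50 bases held the hexamer AATAAA in 6 of the 10 genes and its variant ATTAAA, without AATAAA, in PLK1. Neither was found in these 50 bases of PLK4, WEE1 and CDC25A. Over 11582 genes of the table with a 3' UTR, 67.2% had AATAAA, 15.3% had only ATTAAA and 17.4% had neither. The hexamer, in capitals, with up to 12 bases on each side, is printed for a gene of each family and for PLK1, whose signal is the variant.
PLK1, chr16:23690335-23690364, plus strand: ggctttatgcacATTAAAcagatgtgaata
PLK2, chr5:58453989-58454018, minus strand: taaaccgttggcAATAAAgagtatgaaaac
PKMYT1, chr16:2972823-2972852, minus strand: ctggccgtgtctAATAAAaagtatttgaac
CDC25B, chr20:3806078-3806107, plus strand: gggccttggttcAATAAAgcactgagcaag
CHEK1, chr11:125657106-125657135, plus strand: cctattattaaaAATAAAaatgtgtaaaat
The distance from the hexamer to the annotated end of the transcript was 15 bases in PLK1, 19 in PLK2, 27 in PKMYT1, 20 in CDC25B and 24 in CHEK1.

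AU-rich elements, which destabilise many mRNAs of early response genes, were then counted in the same 3' UTRs. The nonamer TTATTTATT was found in PLK2, PLK3 and CHEK1, which is 3 of the 10 genes, beside 9.84% of all genes with a 3' UTR. PLK3 had 2 copies, and 2.36% of all genes had 2 or more. The nonamers, in capitals with 10 bases on each side, are printed because the early response genes PLK2 and PLK3 both carry them within 100 bases of their 3' ends.
PLK2, chr5:58454066-58454094, minus strand: aataaactttTTATTTATTacagcccaaa
PLK3, chr1:44805900-44805928, plus strand: tggaccacttTTATTTATTgtcagacact
PLK3, chr1:44805918-44805946, plus strand: tgtcagacacTTATTTATTgggatgtgag
CHEK1, chr11:125656507-125656535, plus strand: caaacctgttTTATTTATTtgaacctatt
In PLK2 the nonamer ended 94 bases before the end of the transcript, and in PLK3 the copies ended 72 and 54 bases before it. In CHEK1 the distance was 622 bases. A match to these letters is a description of the sequence and was not tested for function.

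**Figure D1:**
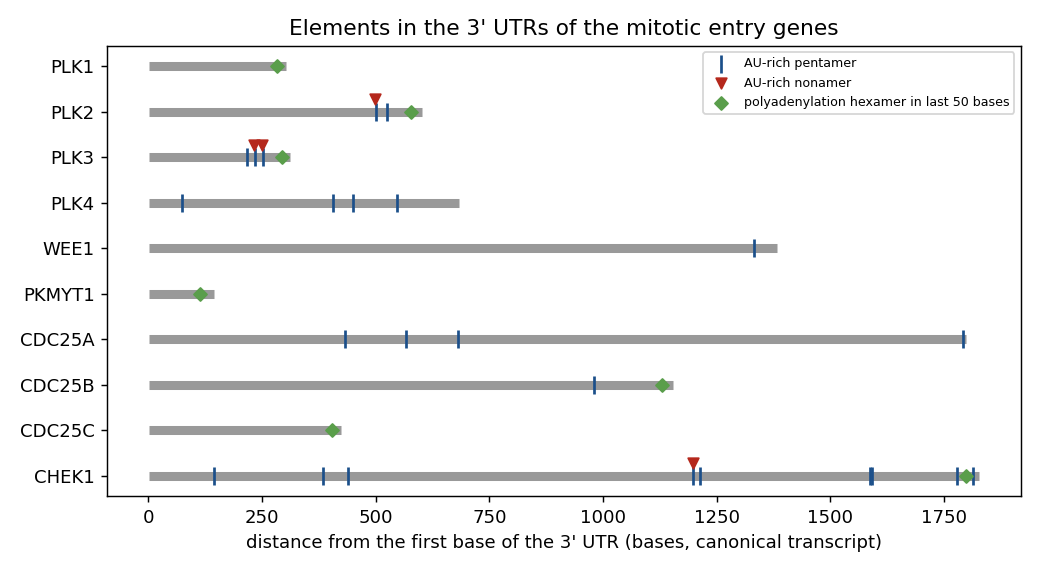
Each grey bar is the 3' UTR of a canonical transcript, drawn to scale from its first base (x axis, bases). Blue ticks are AU-rich pentamers, red triangles nonamers and green diamonds the polyadenylation hexamer in the last 50 bases. The bars run from 145 bases in PKMYT1 to 1827 in CHEK1, and CHEK1 holds the most pentamers, 9.

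The shorter pentamer ATTTA, which each nonamer contains, was present in 7 of the 10 genes and in 73.8% of all. PLK3 had 9.62 pentamers per 1000 bases of 3' UTR, PLK4 had 5.86 and CHEK1 had 4.93, beside a median of 1.74 over all genes. PLK1, PKMYT1 and CDC25C had 0. The 3' UTRs of the members were short, with a median of 642 bases beside 1370 over all genes. That of PKMYT1 was the shortest, at 145 bases, and those of CHEK1 (1827 bases) and CDC25A (1799 bases) were the longest. PLK4 had the lowest GC content of the members' 3' UTRs, 25.3%, beside a median of 42.1% over all genes.

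For comparison between genes, the level was divided by the length of the canonical transcript, which gives log2 CPM per kilobase. PLK1 was the highest of the 10 with these lengths, at 6.40, and PLK3 was the lowest, at 2.40, which is a 16.1-fold range. With the longest transcripts, the union of exons, the deposited feature lengths or no scaling by length, CDC25B came first and PLK1 next, and PLK1 was 8.90-fold above PLK3 with the longest transcripts. Above the median of all genes, 3.04, lay 8 of the 10, and CDC25A and PLK3 lay below it. CDC25A and CDC25C were close to that median, and without scaling by length they changed sides, with CDC25A at percentile 56.2 and CDC25C at 44.4. The members' median was 4.06.

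Among the polo-like kinases the level per length ran, from high to low, in the order PLK1, PLK2, PLK4, PLK3. PLK1 (ENSG00000166851, chromosome 16, 23677656 to 23690367, plus strand of GRCh38 as given in the deposited table) had a mean log2 CPM of 7.51 and stood at percentile 93.0 of all genes by level per length. On the opposite strand, exons of a long noncoding RNA gene and of ERN2 overlap 11.6% and 1.22% of the exon bases of PLK1. Neither of these neighbours is among the genes of the table. PLK2 (ENSG00000145632, chromosome 5, 58453982 to 58460139, minus strand) had a log2 CPM of 6.79, or 5.31 per kilobase, at percentile 84.1. It was 2.13-fold below PLK1 per length with the canonical transcripts, 1.61-fold below with the union of annotated exons and 1.12-fold below with the longest transcripts.

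The other polo-like kinases were less abundant. PLK4 (ENSG00000142731, chromosome 4, 127880893 to 127899224, plus strand) had a log2 CPM of 5.61, or 3.67 per kilobase, at percentile 61.2. PLK3 (ENSG00000173846, chromosome 1, 44800377 to 44805990, plus strand) had a log2 CPM of 3.62, or 2.40 per kilobase, at percentile 38.6, and was the only polo-like kinase gene below the median of all genes. Of the summed level per length of the family with the canonical transcripts, PLK1 held 59.5%, PLK2 27.9%, PLK4 8.93% and PLK3 3.70%. These shares depend on the length used, since PLK1 was 2.13-fold above PLK2 with the canonical transcripts but 1.12-fold with the longest.

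**Figure D2:**
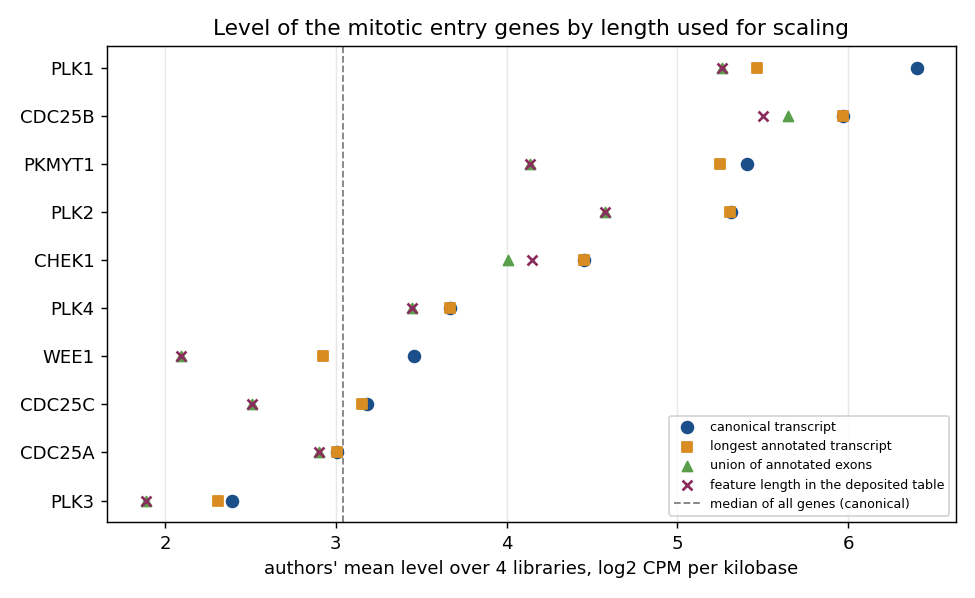
The authors' mean level of each gene over the 4 libraries is plotted in log2 CPM per kilobase (x axis), with the length taken from the canonical transcript, the longest transcript, the union of exons or the deposited table. PLK1 and CDC25B lie at the top and PLK3 at the bottom, and WEE1 moves the furthest with the choice of length, from 3.46 to 2.09.

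The inhibitory kinases of CDK1 were unequal in level. PKMYT1 (ENSG00000127564, chromosome 16, 2968024 to 2980479, minus strand) had a mean log2 CPM of 6.45, or 5.41 per kilobase, at percentile 85.1. WEE1 (ENSG00000166483, chromosome 11, 9573670 to 9593457, plus strand) had a log2 CPM of 5.30, or 3.46 per kilobase, at percentile 57.4. PKMYT1 was therefore 3.87-fold above WEE1 per length, and 4.13-fold above it with the union of exons. The size of WEE1 depended most on the annotation, since its canonical transcript has 3588 bases and the union of its exons 9251. Exons of PKMYT1 overlap those of PAQR4 and KREMEN2 on the opposite strand over 24.7% and 7.18% of its exon bases, and both neighbours are in the table. Whether the authors counted by strand is not given in the sources used here. Without strand, reads that fall in the shared bases cannot be assigned to PKMYT1 or to these neighbours.

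Of the phosphatases, CDC25B was the main one by mRNA level. CDC25B (ENSG00000101224, chromosome 20, 3786772 to 3806121, plus strand), which acts at the start of mitosis, had a log2 CPM of 7.61, or 5.97 per kilobase, at percentile 90.1. CDC25C (ENSG00000158402, chromosome 5, 138285265 to 138338355, minus strand), the substrate of PLK1 at mitotic entry, had a log2 CPM of 4.25, or 3.18 per kilobase, at percentile 52.5. CDC25A (ENSG00000164045, chromosome 3, 48157146 to 48188417, minus strand), which also acts at the start of DNA synthesis, had a log2 CPM of 4.95, or 3.01 per kilobase, at percentile 49.5. With the canonical transcripts CDC25B held 78.6% of the summed level per length of the 3 genes, CDC25C 11.4% and CDC25A 10.1%. The order of CDC25C and CDC25A turned with the union of exons, where CDC25A was at 2.90 and CDC25C at 2.51. Exons of FAM53C, a gene of the table, overlap 8.80% of the exon bases of CDC25C on the opposite strand.

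CHEK1 (ENSG00000149554, chromosome 11, 125625665 to 125676255, plus strand) had a mean log2 CPM of 6.50, or 4.45 per kilobase, at percentile 73.5. It lay between PLK2 and PLK4 in the order of levels. A long noncoding RNA gene on the opposite strand shares 13.4% of its exon bases, and STT3A on the same strand shares 0.946%.

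The order of all 10 by level per length was PLK1, CDC25B, PKMYT1, PLK2, CHEK1, PLK4, WEE1, CDC25C, CDC25A and PLK3. Of the 45 pairs of members, 39 kept their order with each of the other 3 lengths and 6 did not. The 6 were PLK1 with CDC25B, PKMYT1 with PLK2 and with CHEK1, WEE1 with CDC25C and with CDC25A, and CDC25C with CDC25A. PLK1 was 1.35-fold above CDC25B with the canonical transcripts and 0.767 times its level with the union of exons, so neither can be named the higher. PLK3 was the lowest member with each length.

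The partners of these enzymes were then listed from general knowledge, to place the members among them. All 9 genes of the cyclin-CDK1 core were in the table and above the median of all genes, with a median of 6.05 log2 CPM per kilobase. CKS2, a small subunit that binds CDK1, was the highest at 7.54, the cyclin gene CCNB2 stood at the median, and MNAT1, which helps to assemble the kinase that activates CDK1, was the lowest at 3.62. WEE1, CDC25A, CDC25C and PLK3 lay below each of these 9 genes on this scale. Without scaling by length, CDC25C and PLK3 did so, whereas WEE1, at a log2 CPM of 5.30, was above MNAT1 at 5.03, and CDC25A, at 4.95, was above CCNH at 4.88 (a gene named after its values were seen). The 10 activators and effectors around the polo-like kinases had a median of 5.96, and 9 were above the median of all genes. TPX2, which activates Aurora kinase A on the spindle, was the highest at 7.25, and BORA, the cofactor with which Aurora kinase A activates PLK1, was the lowest at 1.89. BORA was thus below every member.

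The 10 genes of the replication checkpoint had a lower median, 2.93, and 5 were above the median of all genes. They ran from 3.89 for TOPBP1, an activator of the kinase ATR, to 1.57 for ATRIP, the partner of ATR, with RAD9A at 3.12 next above their median. CHEK1 was at 4.45 and so above all 10 on this scale. Without scaling by length CLSPN, the adaptor of CHEK1, which is named here after its values were seen, had a log2 CPM of 6.93 and was above CHEK1 at 6.50. The 14 genes of binding and turnover had a median of 6.27, and 13 were above the median of all genes. YWHAE, a 14-3-3 protein that binds phosphorylated CDC25, was the highest at 8.75, and BTRC, the ubiquitin ligase subunit that recognises WEE1 and CDC25A, was the lowest at 1.94.

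**Figure D3:**
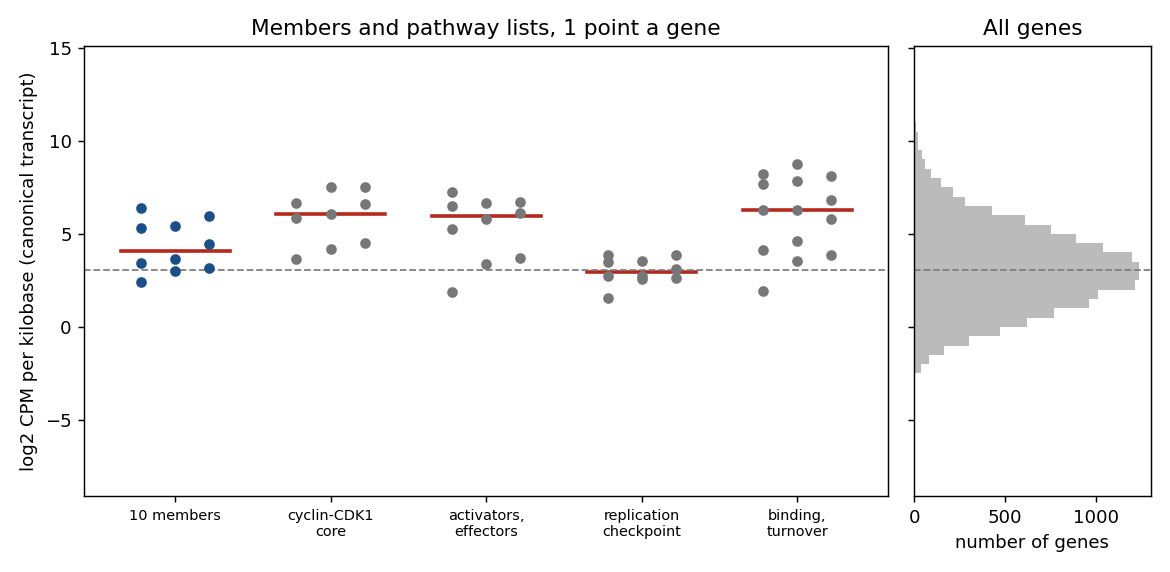
Each point is a gene, at its mean level in log2 CPM per kilobase of the canonical transcript (y axis), for the 10 members in blue and the pathway lists in grey. Red lines are list medians, the dashed line is the median of all genes, 3.04, and the bars on the right count all genes. The members spread from 2.40 to 6.40, the replication checkpoint list lies around the dashed line and the medians of the other lists lie above it. BORA, of the activators and effectors, and BTRC, of binding and turnover, lie below the dashed line.

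The proteins were compared to see how far the members of a family resemble each other where their levels differ. Coding sequences of the canonical transcripts were translated and aligned. PLK2 and PLK3, the second and the lowest of the polo-like kinases by level, were the most alike of the 4, with 48.0% identical residues over the whole proteins and 73.7% in the stretch from the glycine loop, which holds ATP, to the motif that binds magnesium. PLK1 shared 57.7% of that stretch with PLK2 and 54.0% with PLK3. PLK4 was further off, with 35.5% to 38.4% to the other polo-like kinases, and shared 35.5% with CHEK1, which is of another family. WEE1 and PKMYT1 shared 33.5%. The CDC25 proteins were 30.7% to 43.1% identical over their whole length and 60.8% to 66.7% around the catalytic cysteine.

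**Figure D4:**
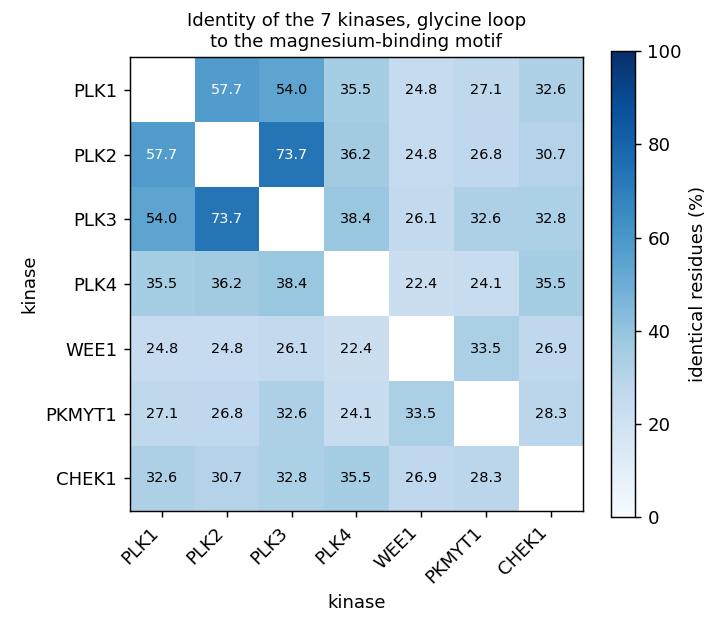
Percent identical residues between each pair of the 7 kinases (rows and columns) from the glycine loop to the magnesium-binding motif, darker blue for more. PLK2 and PLK3 are the darkest pair at 73.7%, and WEE1 has no pair above its 33.5% with PKMYT1.

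The promoters, from 250 bases before to 50 after the start, were read from RefSeq (GRCh38.p14), in which 8 of the 10 members were matched. Each gene was read at a single start, so a motif near another start of the same gene was not counted. A count of 0, such as that of CDC25C for each motif, describes that single window and not the gene. The cell cycle element CHR (TTTGAA on either strand) occurred in PLK1 and PLK4, beside 9.48% of 9764 promoters of genes in the table. The match in PLK4 was on the reverse strand and began 38 bases after the start, within the transcript. The motif of E2F factors (TTTNNCGC on either strand) occurred in CDC25A, beside 10.7% of these promoters, and the CCAAT box (CCAAT on either strand) in PLK1, CDC25A and CHEK1, beside 37.1%. The sites of PLK1 and CDC25A are printed, with the motif in capitals, because PLK1 holds both the CHR and the CCAAT letters and CDC25A is the only matched member with the E2F letters.
PLK1, CHR, chr16:23678850-23678875, plus strand: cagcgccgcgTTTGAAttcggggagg
PLK1, CCAAT box, chr16:23678806-23678830, plus strand: atccccgcggCCAATcagtggcgcg
CDC25A, E2F, chr3:48188444-48188471, minus strand: gtggattccgTTTGGCGCcaactaggaa
The PLK1 element CHR began 29 bases before the start and its CCAAT box 73 bases before it. In CDC25A the E2F letters began 44 bases before the start. The CArG box, the binding motif of the serum response factor, and the cyclic AMP response element (TGACGTCA) occurred in 0 of the 8 promoters, beside 1.07% and 3.34% of all. These windows were not linked to any measured change.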

How the data were processed

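Stranded, ribosomal RNA-depleted libraries of 4 samples were sequenced by the authors as 75 bp paired-end reads, mapped to GRCh38.p13 and counted with rsubread. The submitters' processing notes list TopHat, HTSeq, DESeq, Cufflinks and hg38, with no roles given. The authors' deposited table gives 1 log2 CPM for each gene, read here as a mean over all libraries, and the feature length. Its 4 further columns hold the authors' own comparison of cordycepin with DMSO (log2 fold change, F statistic, p-value and adjusted p-value) and were not used. It holds 0 columns of values per sample. The normalization and the filter on low counts are not given in the sources used here. Over its 13957 genes the deposited log2 CPM ranged from 0.56 to 13.43.

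Levels were divided by the canonical transcript length of GENCODE release 44, in which 13922 gene IDs (99.7%) were found. Start and end were the same as in GENCODE for 8 of the 10 members. A percentile is the share of other genes with a lower level. Proteins were aligned globally with BLOSUM62, with gap penalties of 11 and 1. The catalytic stretch of CDC25 proteins ran from 100 residues before the active-site motif to 50 after it. Promoters came from a RefSeq table. The members and lists were chosen with earlier results of these data known. Genes named are the 10 members, the markers and the highest, middle and lowest gene of each list, of which 1 is not reported here. The ranking and the exon union were tested on made-up input with known answers. For motifs only a plain text search for TTTGAA was tried, and the searches used on promoters and 3' UTRs were not tested. Python 3.11.15, numpy 2.4.6, pandas 2.3.3, Biopython 1.88 and matplotlib 3.10.9 were used.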

Additional observations from a re-analysis of the deposited data

How the results depend on the processing

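No paired analysis was possible because each gene has 1 value for all libraries together, and for the same reason no replicate was left out and no test of cordycepin against DMSO was made. Levels of 9 of the 10 members moved by less than 1.5-fold with the longest annotated transcript, the exception being PLK1, and those of 5 with the union of exons, where the changes ran from -0.11 for CDC25A to -1.37 for WEE1 on the log2 scale. The feature length in the deposited table, an alternative chosen after seeing the data, also left 5 within 1.5-fold. Percentiles of all 10 moved by less than 10 points among protein-coding genes or without scaling by length, but CDC25A and CDC25C changed sides of the median in the latter case. Without that scaling the medians, now in log2 CPM, were 6.03 for the members, 7.33 for the activators and effectors, 5.40 for the replication checkpoint, 6.96 for binding and turnover, 6.62 for the cyclin-CDK1 core and 4.58 for all genes. No member or list gene was at or below a log2 CPM of 1, so leaving out such genes could not move a list, and the median of all genes went from 3.04 to 3.11 per kilobase. Counting pentamers in place of nonamers raised the members with an AU-rich element from 3 to 7. Identity within families was higher in the catalytic stretch than over whole proteins in all 10 pairs. The precision of a level cannot be given, as the depth is unknown.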
